A study of Mus musculus with 24 samples.

Results

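The genes described here make, export, sense and degrade the lipid signals sphingosine-1-phosphate (S1P) and lysophosphatidate (LPA): Spns2, S1pr1, S1pr2, S1pr3, Sphk1, Sphk2, Sgpl1, Enpp2, Lpar1 and Plpp3. They were chosen by name, as the rows of the deposited count table whose Ensembl identifiers map to these symbols. All 10 of the 10 symbols were found among 54418 gene rows, and all 10 passed the filter on low counts that left 19050 genes for testing. RNA sequencing had been done on mouse stromal cells from small intestine and colon, sorted as negative for Epcam (a surface protein of epithelium) and for CD45 (a surface protein of leukocytes). They were further split by CD31, the product of Pecam1 on endothelium, and by expression of a GFP transgene reporting Rspo3, a secreted amplifier of Wnt signaling. Crossing tissue, CD31 and reporter gave 8 groups of 3 libraries each, 24 in all. Small intestine and colon each gave CD31- RSPO3-, CD31- RSPO3+, CD31+ RSPO3- and CD31+ RSPO3+ cells. Every group came from C57Bl6 background mice 8 to 12 weeks old, RSPO3+ and RSPO3- stand below for the sign of the transgene, and no group received a treatment that the labels name. The labels do not give the build of the transgene, the sex of the mice or whether a group had 3 mice behind its 3 libraries, and p-values therefore reflect library-to-library spread alone, possibly of technical origin. Libraries are numbered 1 to 3 in column order, and a number was not taken to link libraries across groups.

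S1P is made inside cells from sphingosine by the kinases encoded by Sphk1 and Sphk2, leaves endothelial cells through the transporter encoded by Spns2, and acts on G-protein-coupled receptors such as those encoded by S1pr1, S1pr2 and S1pr3. Sgpl1 encodes the lyase that cleaves S1P irreversibly. Enpp2 encodes autotaxin, a secreted enzyme that makes LPA from lysophosphatidylcholine, Lpar1 encodes an LPA receptor, and Plpp3 encodes a membrane phosphatase that removes the phosphate from both lipids outside the cell. In the gut wall S1P is best known for vessel integrity and for lymphocyte exit through lymph, and LPA as a signal to fibroblasts and lymphatic vessels.

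Gene positions below are those of GENCODE M21 on GRCm38, whose symbols matched 54096 of the 54418 identifiers. The sequence before the RefSeq start is shown for the exporter, which was high in CD31+ cells, and for a pair of S1P receptors that were high in CD31- cells, because these genes moved in opposite directions between the same sorts. Each run is the 250 bases before a start on GRCm38.p6, 5′ to 3′ on the gene's strand, and capitals mark matches to any of 5 short motifs searched on both strands: CAGGAA for ETS factors, ACAAT for SOX, CACCC for KLF, GGAATG for TEAD and TGANTCA for AP-1. Of the 10 genes 8 matched the RefSeq promoter table, all but S1pr1 and Enpp2.

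Spns2, chr11:72475028-72475277, minus strand: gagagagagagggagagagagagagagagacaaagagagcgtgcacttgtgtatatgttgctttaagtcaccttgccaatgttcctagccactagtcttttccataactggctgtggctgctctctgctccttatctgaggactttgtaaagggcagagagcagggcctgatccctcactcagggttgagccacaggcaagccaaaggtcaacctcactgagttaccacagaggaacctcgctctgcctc
S1pr2, chr9:20976794-20977043, minus strand: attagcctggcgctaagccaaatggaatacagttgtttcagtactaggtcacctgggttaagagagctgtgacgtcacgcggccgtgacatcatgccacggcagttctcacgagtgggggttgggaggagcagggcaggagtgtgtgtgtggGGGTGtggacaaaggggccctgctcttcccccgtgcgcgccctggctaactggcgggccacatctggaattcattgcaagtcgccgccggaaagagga
S1pr3, chr13:51408368-51408617, plus strand: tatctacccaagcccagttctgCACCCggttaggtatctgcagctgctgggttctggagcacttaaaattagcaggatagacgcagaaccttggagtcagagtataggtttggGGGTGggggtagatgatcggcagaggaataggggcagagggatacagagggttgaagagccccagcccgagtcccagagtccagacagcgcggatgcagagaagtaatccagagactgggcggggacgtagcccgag

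The Spns2 window held none of the 5 motifs. It lies within the span of the GENCODE gene model, chr11:72451638-72489904, which starts farther upstream. The S1pr2 window held 1 KLF match, read on the opposite strand and 98 bases before the start. The S1pr3 window held 2 KLF matches, at 228 bases before the start on the gene's strand and at 137 bases on the opposite strand. KLF letters occurred in 52.0% of 32817 mouse windows of the same length, against 25.7% for ETS, 27.7% for SOX, 12.6% for TEAD and 6.75% for AP-1. The matches are a description of these letters and not sites.

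The sort held in the RNA. Pecam1 was at 347 to 1486 CPM (counts divided by library size and scaled by the trimmed mean of M values) in the 12 CD31+ libraries and at 8.18 to 43.9 in the 12 CD31- libraries. Rspo3 was at 139 to 449.9 CPM in RSPO3+ and at 11.1 to 24.1 CPM in RSPO3- libraries. Total counts ran from 8462041 to 29214487 per library, with a median of 17881736. Among CD31+ cells the reporter split vessel types: the summed level of 7 lymphatic markers was 29914 to 50696 CPM in RSPO3+ and 1911 to 6002 CPM in RSPO3- libraries, while 6 blood endothelial markers summed to 305 to 882 and to 11124 to 17990.4 CPM. Labels gave Epcam as absent, yet 5 epithelial markers summed to 3108 to 5371 CPM in CD31- RSPO3- cells of the small intestine and 1124 to 4089 CPM in those of the colon, against 29.4 to 113 CPM in the small-intestinal CD31- RSPO3+ libraries. Mitochondrial genes took 2.67% to 4.82% of the counts in CD31- RSPO3- libraries of the small intestine and 0.493% to 1.97% in the other 21. A pair of colon libraries stood apart within their groups. Library 3 of the CD31+ RSPO3- group had 6 fibroblast markers at 8752 CPM in sum, against 1322 and 1725 CPM in libraries 1 and 2. Library 3 of the CD31- RSPO3+ group had leukocyte markers at 1136 CPM and epithelial markers at 1678 CPM, against at most 67.3 and 165 CPM in the other two. Several results resting on either are given below with and without them, and the others only with them.

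The CD31 sign separated an endothelial pair from a larger stromal set, while Sphk2, Enpp2 and Plpp3 varied between comparisons. Spns2 and S1pr1 were higher in CD31+ than in CD31- cells in both tissues and under both reporter signs. S1pr2, S1pr3, Lpar1, Sphk1 and Sgpl1 were lower in CD31+ cells in all 4 of these comparisons. In bulk RNA fewer cells of a type and less RNA per cell cannot be told apart, here and in every difference below. In RSPO3- cells of the small intestine, 2 of 10 genes were higher and 6 lower at an adjusted p under 0.05 (edgeR quasi-likelihood test, Benjamini-Hochberg over all genes tested), where 20.1% of all genes were higher and 21.6% lower (41.6% together). The median log2 difference of the 10 was -1.40, against -0.03 over all tested genes. In RSPO3+ cells of the small intestine 2 were higher and 7 lower, with 16.9% of all genes higher and 19.6% lower (36.5% together) and medians of -2.09 and -0.01. In RSPO3- cells of the colon 3 were higher and 6 lower, with 16.1% of all genes higher and 16.4% lower (32.5% together) and medians of -1.05 and -0.07. In RSPO3+ cells of the colon 2 were higher and 7 lower, with 14.9% of all genes higher and 18.2% lower (33.1% together) and medians of -1.80 and -0.07. Without both libraries that stood apart, 9 genes were still called in each colon comparison.

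**Figure D1:**
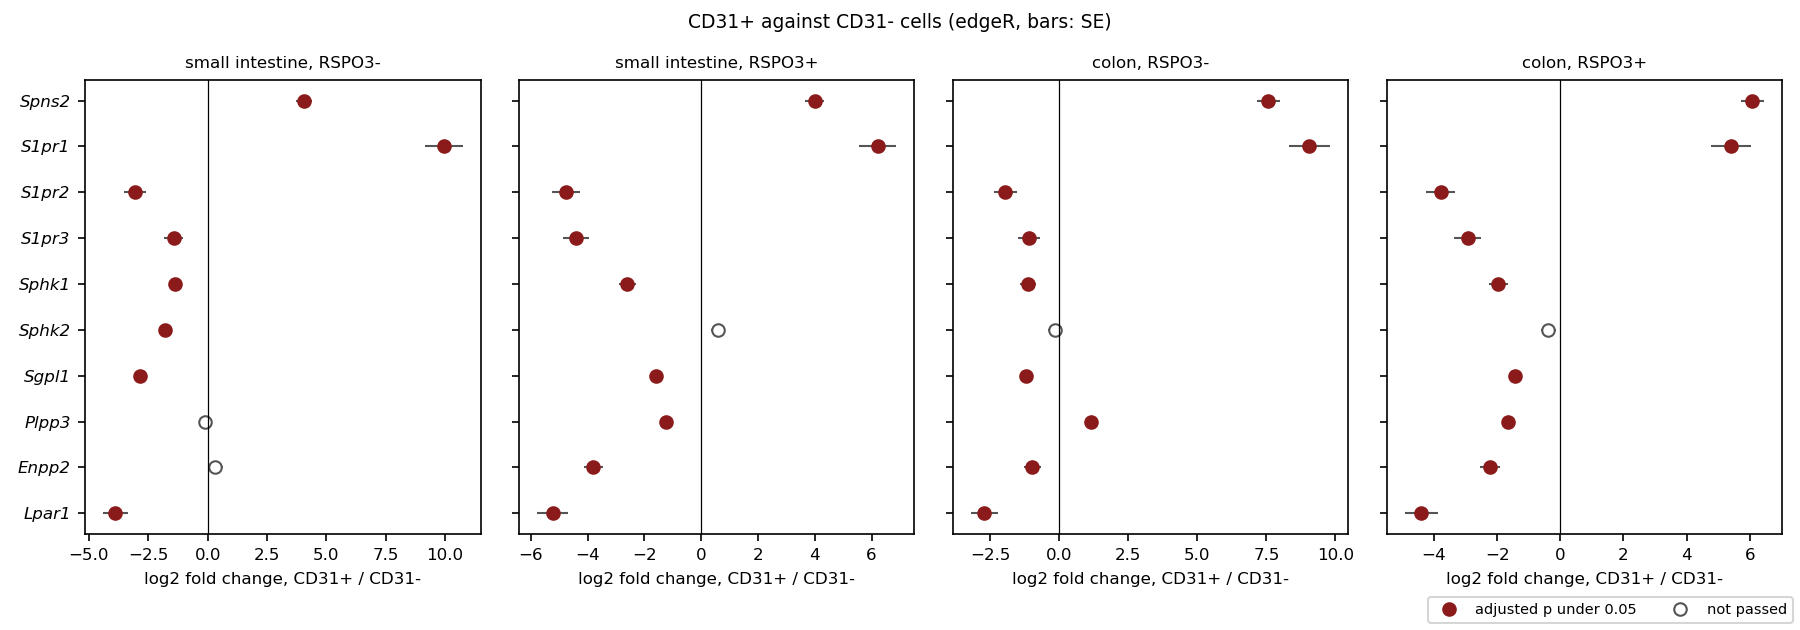
Log2 difference between CD31+ and CD31- cells (x axis, bars give the standard error) for each of the 10 genes in the 4 combinations of tissue and reporter sign; filled points had an edgeR adjusted p under 0.05. S1pr1 and Spns2 lie to the right in every panel, while Plpp3 changes side between the colon RSPO3- and RSPO3+ panels (1.16 and -1.65).

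Spns2 (ENSMUSG00000040447, chr11:72451638-72489904, minus strand), the S1P exporter, was an endothelial transcript in both tissues. Its levels in small-intestinal CD31+ cells were 298, 281 and 228 CPM in the RSPO3- libraries and 312, 289 and 234 CPM in the RSPO3+ libraries. Colonic CD31+ cells had 341, 279 and 235 CPM in RSPO3- and 329.9, 337 and 386 CPM in RSPO3+ libraries. These 4 groups followed each other in the order of levels with overlapping ranges, across the sort rich in blood endothelial markers and the one rich in lymphatic markers. The reporter difference within CD31+ cells was 0.05 ± 0.29 (log2 ± SE) in the small intestine and 0.30 ± 0.29 in the colon, with edgeR adjusted p of 0.94 and 0.51. CD31- cells split by tissue: the small-intestinal libraries held 15.4, 13.7 and 19.4 CPM (RSPO3-) and 13.2, 23.7 and 15.4 CPM (RSPO3+), the colonic ones 1.18, 2.24 and 0.956 CPM (RSPO3-) and 4.39, 2.95 and 8.09 CPM (RSPO3+). No colonic CD31- library reached the lowest small-intestinal one. CD31+ cells therefore exceeded CD31- cells by 16.6-fold and 16.0-fold in the small intestine and by 191-fold and 67.8-fold in the colon, for RSPO3- and RSPO3+ cells in that order. The 4 edgeR adjusted p lay between 1.6e-10 and 1.3e-08.

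The tissue difference of Spns2 in CD31- cells passed the test in both reporter signs. Colon was 10.8-fold lower than small intestine in RSPO3- cells (log2 -3.44 ± 0.34, edgeR adjusted p = 8.3e-07). In RSPO3+ cells it was 3.37-fold lower (log2 -1.75 ± 0.32, adjusted p = 0.0016). The latter ended when only the groups compared were fitted (0.0743, the highest of its 14 alternatives, whose lowest was 7.47e-06). In the small intestine Spns2 of CD31- cells stood at 6.002% (RSPO3-) and 6.27% (RSPO3+) of its CD31+ level, whereas the 6 pan-endothelial markers stood at 0.456% and 1.57% of theirs. In colonic CD31- RSPO3- cells the same shares were 0.511% for Spns2 and 0.370% for the markers. In colonic CD31- RSPO3+ cells they were 1.47% for Spns2 and 2.21% for the markers. Within colonic CD31- cells Spns2 rose with the reporter, by 1.79 ± 0.34 on the log2 scale (3.47-fold, adjusted p = 0.0021), and the pan-endothelial sum was 35.0 to 122 CPM against 13.2 to 26.4 CPM there; its part in the result was not tested. Fitting only the groups compared ended that call (0.118, the highest of 14 alternatives from 1.05e-05). Without both libraries that stood apart it was 1.28 with adjusted p = 0.014. Spns2 shares 131 exonic bases with Mybbp1a on the opposite strand, and strand was not marked, so a few reads could belong to either gene.

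**Figure D2:**
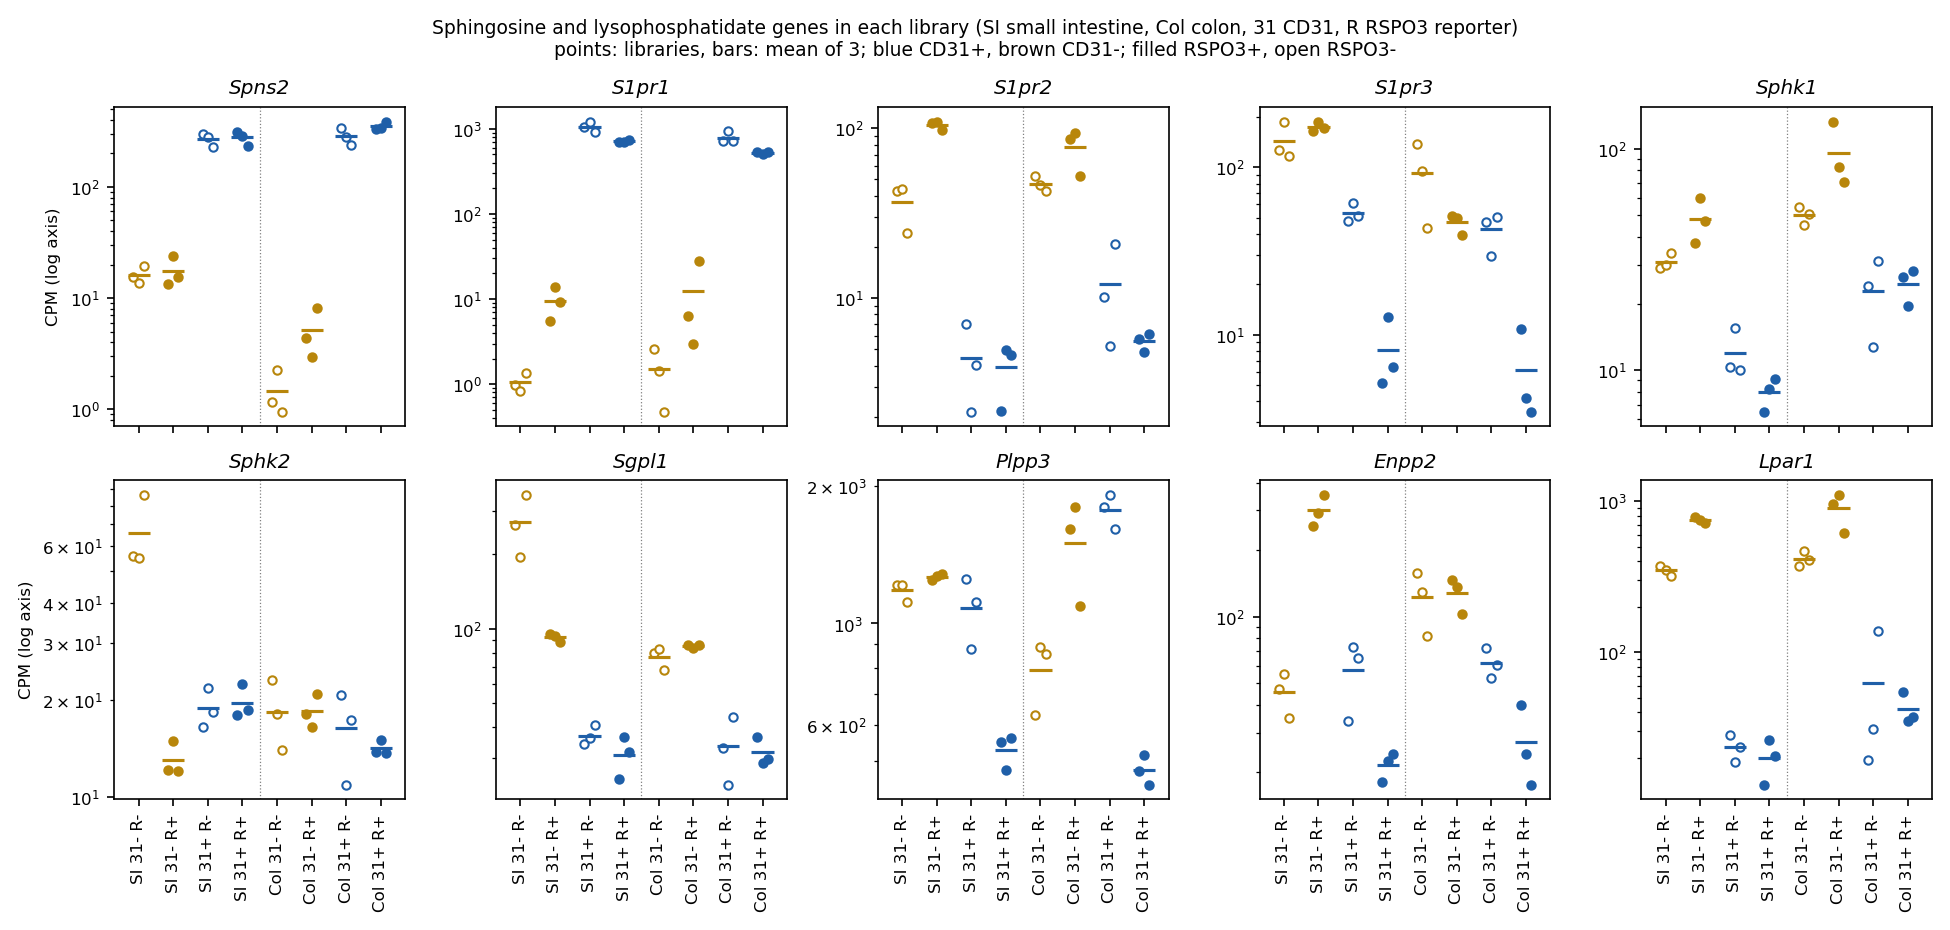
Level of each of the 10 genes in CPM on a log axis, one panel per gene, with points for libraries and bars for the mean of 3 in each of the 8 groups. Spns2 and S1pr1 sit high in the 4 CD31+ groups, Lpar1 and S1pr2 high in the 4 CD31- groups, and Sphk2 and Sgpl1 peak in the CD31- RSPO3- group of the small intestine.

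S1pr1 (ENSMUSG00000045092, chr3:115710433-115715072, minus strand), the receptor known for keeping endothelium quiet and for guiding lymphocytes out of tissue, had the widest range of the 10 genes, 1006-fold between its highest and lowest group mean. In the small intestine it was at 1040.0, 1215 and 912 CPM in CD31+ RSPO3- libraries and at 697, 703 and 728 CPM in CD31+ RSPO3+ libraries. The colonic counterparts held 708, 943 and 711 CPM and 534, 507 and 533 CPM. Within each tissue the RSPO3+ libraries all lay below the RSPO3- libraries, but the fitted differences of -0.57 ± 0.52 (edgeR adjusted p = 0.50) and -0.59 ± 0.52 (0.47) did not pass. Fitting only the groups compared put the colonic difference past the threshold (0.0309, the lowest of 14 alternatives, whose highest was 0.672). CD31- RSPO3- cells held 0.969, 0.826 and 1.35 CPM in the small intestine and 2.60, 1.43 and 0.478 CPM in the colon. The CD31 difference was 992-fold in RSPO3- and 74.4-fold in RSPO3+ cells of the small intestine, and 534-fold and 42.1-fold in the colon (adjusted p from 7.3e-09 to 1.4e-06). Without CD31- RSPO3+ library 3 the last log2 difference went from 5.39 to 6.86.

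Inside the CD31- gate S1pr1 rose with the reporter in both tissues. The small-intestinal RSPO3+ libraries held 5.49, 13.9 and 9.23 CPM, all above the RSPO3- libraries, a difference of 3.16 ± 0.63 (log2 ± SE, 8.96-fold, edgeR adjusted p = 0.00072). The colonic RSPO3+ libraries held 6.24, 2.95 and 27.9 CPM, a difference of 3.08 ± 0.61 (8.45-fold, adjusted p = 0.0029). The 27.9 CPM belongs to library 3, the one with leukocyte and epithelial markers. Its pan-endothelial sum was 122 CPM, against 69.3 and 35.0 CPM in libraries 1 and 2. Leaving library 3 out gave 1.62 with adjusted p = 0.0233, and leaving out RSPO3- library 1 gave 3.69 with 0.00376. Fitting only the groups compared gave 3.08 with 0.128, the highest of 14 alternatives from 2.73e-06. The pan-endothelial sum moved the same way, from 13.2 to 22.2 CPM up to 54.9 to 79.6 CPM in the small intestine. In the colon it went from 13.2 to 26.4 CPM up to 35.0 to 122 CPM. Its part in the result was not tested. S1pr1 in CD31- RSPO3+ cells stood at 1.35% (small intestine) and 2.36% (colon) of its CD31+ level. For those markers the shares were 1.57% and 2.21%. In CD31- RSPO3- cells S1pr1 stood at 0.0994% (small intestine) and 0.191% (colon), and the markers at 0.456% and 0.370%.

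S1pr2 (ENSMUSG00000043895, chr9:20962361-20976781, minus strand), a receptor known for opposing the migration signal of S1pr1, was highest in CD31- RSPO3+ cells of the small intestine at 108, 109.6 and 97.0 CPM. The CD31- RSPO3- libraries there held 42.5, 44.0 and 24.3 CPM, so the reporter groups did not overlap and the difference was 1.5 ± 0.41 (2.83-fold, edgeR adjusted p = 0.0090). The fibroblast marker sum was 15057 to 20876 CPM (RSPO3-) and 89568 to 102031 CPM (RSPO3+) there, and its part in the result was not tested. The S1pr2 call ended without CD31- RSPO3- library 3 (1.27, adjusted p = 0.0583) and in limma with a pseudocount of 0.1 (0.0604, the highest of 13 alternatives from 0.00228). Colonic CD31- libraries held 52.1, 46.4 and 42.6 CPM (RSPO3-) and 86.5, 93.4 and 52.2 CPM (RSPO3+), a difference of 0.72 ± 0.41 that did not pass (0.31). CD31+ cells held 2.15 to 7.02 CPM in the small intestine under either sign, 4.79 to 6.12 CPM in colonic RSPO3+ libraries, and 10.2, 5.21 and 20.8 CPM in colonic RSPO3- libraries. The highest of these, library 3, is the one with fibroblast markers. CD31+ cells were lower by 8.33-fold and 27.1-fold in the small intestine and by 3.89-fold and 13.9-fold in the colon (adjusted p from 1.5e-07 to 0.0014). Without the library with fibroblast markers the third of these log2 differences went from -1.96 to -2.66. In CD31+ cells S1pr2 stood at 3.74% to 25.6% of its CD31- level, and the fibroblast marker sum at 1.43% to 14.0% of its own.

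S1pr3 (ENSMUSG00000067586, chr13:51408639-51422797, plus strand), a receptor found on mural cells and fibroblasts, separated the kinds of CD31+ cells. CD31+ RSPO3- libraries held 47.7, 61.2 and 51.4 CPM in the small intestine and 47.5, 29.4 and 50.7 CPM in the colon. CD31+ RSPO3+ libraries held 5.14, 12.8 and 6.40 CPM and 10.8, 4.16 and 3.47 CPM. S1pr3 thus fell with the reporter by 2.72 ± 0.43 on the log2 scale in the small intestine (edgeR adjusted p = 9.9e-05) and by 2.80 ± 0.43 in the colon (6.9e-05). Without colonic CD31+ RSPO3+ library 1 the second was -3.43. The summed level of 4 pericyte markers moved with it, at 257 to 338 CPM (RSPO3-) against 11.7 to 27.8 CPM (RSPO3+) in small-intestinal CD31+ cells. Colonic ones held 351 to 636 CPM against 18.5 to 33.7 CPM. In the same RSPO3+ sorts the blood endothelial sum was lower and the lymphatic sum higher, as given above. The part of each in the result was not tested. Small-intestinal CD31- libraries held 127, 188 and 117 CPM (RSPO3-) and 164, 186 and 172 CPM (RSPO3+), colonic ones 139, 94.8 and 43.4 CPM and 50.9, 50.1 and 39.6 CPM. The RSPO3+ colonic level was 3.72-fold below the small-intestinal one (log2 -1.89 ± 0.41, adjusted p = 0.0067), whereas the RSPO3- pair overlapped and did not pass (0.30). The reporter difference within colonic CD31- cells was -0.98 ± 0.40 (0.14) and passed only in limma with a pseudocount of 1 (0.047, the lowest of 14 alternatives, highest 0.496).

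The CD31 difference of S1pr3 was larger in RSPO3+ cells. It was -4.42 ± 0.46 in the small intestine and -2.94 ± 0.44 in the colon (edgeR adjusted p = 2.0e-07 and 2.4e-05), and the second went to -3.61 without CD31+ RSPO3+ library 1. In RSPO3- cells it was -1.43 ± 0.40 (0.0078) and -1.12 ± 0.40 (0.039). The small-intestinal one missed the threshold in limma without the filter (0.0564, the highest of 13 alternatives from 0.00109). The colonic groups overlapped, because CD31- library 3 at 43.4 CPM lay within the CD31+ range. That call ended without CD31- library 1 (-0.73, adjusted p = 0.206) or 2 (0.0638), without CD31+ library 1 (0.0774) or 2 (0.159), with only the groups compared (0.0742), and in limma with a pseudocount of 0.1 (0.0716) or without the filter (0.0873). Its 14 alternatives gave 0.00955 to 0.206.

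Expressed per length, a single receptor dominated the S1P receptors of every endothelial library. S1pr1 made up 92.3% to 99.3% of the summed TPM, a length-corrected share of transcripts, of the 5 S1P receptor genes in the 12 CD31+ libraries. In CD31- RSPO3- cells S1pr1 was 0.521% to 1.86% of that sum, S1pr3 47.2% to 79.7% and S1pr2 19.2% to 52.0%. In CD31- RSPO3+ cells S1pr3 led in the small intestine at 54.6% to 58.3%. S1pr2 led in the colon, at 38.4% to 66.6%, with S1pr1 at 30.5% in library 3. The summed level was 231 to 670 TPM in CD31+ and 30.8 to 97.4 TPM in CD31- libraries. S1pr4, a leukocyte receptor, stayed at or under 8.24 CPM and S1pr5 at or under 0.413 CPM in every library. S1pr4 was highest in CD31+ RSPO3- libraries of both tissues, at 2.64 to 5.41 TPM.

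**Figure D3:**
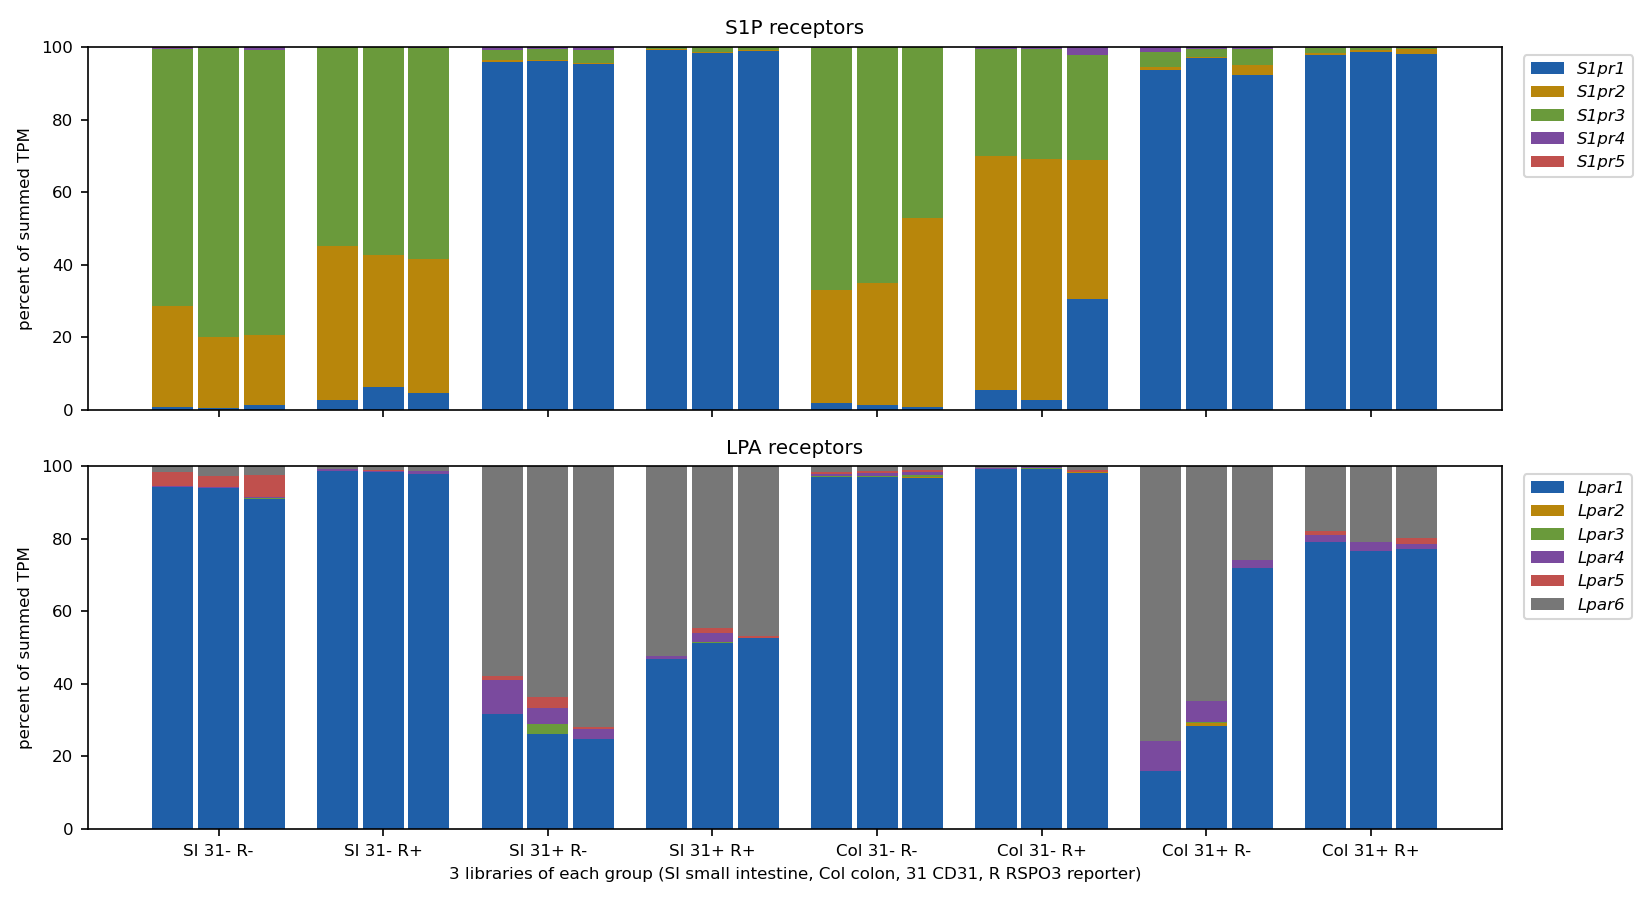
Share of each receptor gene in the summed TPM of the S1P receptors (upper panel) and of the LPA receptors (lower panel) for every library; the y axis is percent, and bars are libraries in blocks of 3 per group. S1pr1 fills 92.3% or more of each CD31+ bar in the upper panel, and Lpar1 fills 91.0% or more of each CD31- bar in the lower one.

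Sphk1 (ENSMUSG00000061878, chr11:116530925-116536674, plus strand), the growth-factor-regulated sphingosine kinase, was higher in CD31- cells and, in both RSPO3+ sorts, higher in the colon. CD31- RSPO3+ libraries held 133, 83.0 and 71.1 CPM in the colon and 37.4, 59.7 and 47.4 CPM in the small intestine. The CD31- RSPO3- groups held 54.4, 45.1 and 50.7 CPM and 28.8, 29.9 and 33.7 CPM. CD31+ cells were lower in all 4 comparisons, by 2.20-fold (colon RSPO3-) to 6.08-fold (small intestine RSPO3+), with edgeR adjusted p of 7.4e-07 to 0.0041. Among CD31+ RSPO3+ cells the colon exceeded the small intestine by 3.11-fold, with 26.3, 19.4 and 27.9 CPM against 6.52, 8.22 and 9.13 CPM (log2 1.63 ± 0.29, adjusted p = 0.0015). That was the only member called between the tissues in that sort. CD31+ RSPO3- libraries held 24.1, 12.8 and 31.3 CPM in the colon and 10.4, 15.6 and 9.995 CPM in the small intestine, and that difference of 0.92 ± 0.29 did not pass (0.072). It passed without colonic library 2 (1.21, 0.0133) and in DESeq2 (0.0432), and its 14 alternatives reached 0.34.

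A pair of smaller Sphk1 differences passed by a narrow margin. The rise with the reporter in colonic CD31- cells, 0.93 ± 0.28 (edgeR adjusted p = 0.041), ended without RSPO3- library 1 (0.0833), 2 (0.137) or 3 (0.113), and without RSPO3+ library 1 (0.254) or 2 (0.0557). It also ended with only the groups compared (0.0709) and in limma with a pseudocount of 1 (0.206) or 0.1 (0.232) or without the filter (0.315), and the lowest of its 14 alternatives was 0.0101. The excess of colon over small intestine in CD31- RSPO3+ cells, 0.99 ± 0.28 (0.037), ended without small-intestinal library 1 (0.167) or 3 (0.0997) or colonic library 1 (0.203). It missed the threshold with only the groups compared (0.0657) and in limma with a pseudocount of 1 (0.0664) or 0.1 (0.0818) or without the filter (0.129), over 14 alternatives from 0.00806. In CD31- RSPO3- cells the same difference of 0.70 ± 0.28 did not pass (0.094); it passed with only the groups compared (0.0199) and in limma with a pseudocount of 1 (0.0289) or 0.1 (0.0362), and its 13 alternatives reached 0.223.

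Sphk2 (ENSMUSG00000057342, chr7:45709467-45718002, minus strand), the kinase found in nucleus and mitochondria, was flat except in one sort. CD31- RSPO3- cells of the small intestine held 55.7, 54.9 and 86.4 CPM, while the other 21 libraries lay between 10.9 and 23.1 CPM. The mitochondrial share of counts in these 3 libraries was 3.49%, 2.67% and 4.82%, above the other 21 libraries as well. Their epithelial marker sums were 3108, 3532 and 5371 CPM. The part of either in the Sphk2 level was not tested. In that tissue Sphk2 was 5.05-fold lower in CD31- RSPO3+ cells (log2 -2.34 ± 0.24, edgeR adjusted p = 8.3e-07). It was 3.48-fold lower in CD31+ RSPO3- cells (log2 -1.80 ± 0.24, 5.5e-06). Colonic CD31- RSPO3- cells were 3.58-fold lower than their small-intestinal counterpart (log2 -1.84 ± 0.24, 1.6e-05). In RSPO3+ cells of the small intestine the CD31 difference was 0.59 ± 0.23 (0.053), and it passed with only the groups compared (0.0458) and in limma with a pseudocount of 1 (0.0214) or 0.1 (0.0192) or without the filter (0.0308), over 13 alternatives that reached 0.145. Sphk2 shares 373 exonic bases with the ribosomal gene Rpl18 and 539 with Dbp, both on the opposite strand, and Rpl18 had 74384 counts over all libraries against 10099 for Sphk2, so its values are uncertain without strand. Per length, Sphk1 was 35.1% to 45.0% of the summed TPM of both kinases in small-intestinal CD31- RSPO3- libraries and 79.5% to 85.7% in the CD31- RSPO3+ ones. Colonic CD31- libraries had 78.3% to 91.6%.

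Sgpl1 (ENSMUSG00000020097, chr10:61098642-61147703, minus strand), the S1P lyase, shared that peak. Its levels in CD31- RSPO3- cells of the small intestine were 264, 196 and 348 CPM, against 95.8, 93.3 and 88.6 CPM in CD31- RSPO3+ cells, 79.6, 82.6 and 68.2 CPM in colonic CD31- RSPO3- cells and 86.4, 83.8 and 85.7 CPM in colonic CD31- RSPO3+ cells. The 12 CD31+ libraries held 23.4 to 44.0 CPM. The lyase was lower in CD31+ cells in all 4 comparisons, from 2.29-fold (colon RSPO3-) to 7.27-fold (small intestine RSPO3-), with edgeR adjusted p of 4.6e-09 to 0.00018. The reporter difference in small-intestinal CD31- cells was -1.54 ± 0.21 (2.91-fold lower, 1.5e-05). The tissue difference in CD31- RSPO3- cells was -1.81 ± 0.21 (3.51-fold lower in colon, 4.7e-06). Both Sphk2 and Sgpl1 moved in the small intestine with the epithelial marker sum (3108 to 5371 CPM in CD31- RSPO3- against 29.4 to 113 CPM in CD31- RSPO3+ libraries), and with the mitochondrial share of counts (2.67% to 4.82% against 0.69% to 1.27%). Over small-intestinal CD31- RSPO3- libraries 1, 2 and 3 the epithelial sum was 3108, 3532 and 5371 CPM. The mitochondrial share there was 3.49%, 2.67% and 4.82%. In colonic CD31- RSPO3- libraries the epithelial sum was 1124 to 4089 CPM and the mitochondrial share 1.36% to 1.97%. Sphk2 was at 14.0 to 23.1 CPM there, and Sgpl1 at the colonic levels given above. The part of the epithelial sum or of the mitochondrial share in the result was not tested.

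Enpp2 (ENSMUSG00000022425, chr15:54838901-54952892, minus strand), which encodes autotaxin, marked CD31- RSPO3+ cells of the small intestine. They held 254, 293 and 353 CPM, above all 21 other libraries. The RSPO3- counterpart held 47.2, 54.9 and 35.1 CPM, so Enpp2 rose with the reporter by 2.72 ± 0.32 on the log2 scale (6.57-fold, edgeR adjusted p = 3.2e-06). The fibroblast marker sum stood at 89568 to 102031 CPM there, against 15057 to 20876 CPM in the RSPO3- counterpart; its part in the result was not tested. Colonic CD31- libraries held 157, 129 and 82.0 CPM (RSPO3-) and 145, 136 and 103 CPM (RSPO3+), with overlapping ranges and a difference of 0.07 ± 0.30 (0.93). Within CD31+ cells Enpp2 went the other way. The libraries held 33.8, 72.9 and 65.3 CPM (RSPO3-) against 17.9, 22.5 and 24.2 CPM (RSPO3+) in the small intestine, and 72.2, 52.7 and 60.4 CPM against 39.9, 23.97 and 17.5 CPM in the colon. It fell by 1.41 ± 0.31 (adjusted p = 0.0022) and by 1.19 ± 0.31 (0.0072). The pericyte marker sums given beside S1pr3 and the blood endothelial sum were lower in the same RSPO3+ sorts, and the lymphatic sum was higher. The part of each in the result was not tested. The colonic call ended without CD31+ RSPO3+ library 3 (-0.95, adjusted p = 0.0505, the highest of 14 alternatives from 0.00175).

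The tissues also differed in Enpp2 of CD31- cells, in opposite directions by reporter sign. Colon was 2.68-fold higher in RSPO3- cells (log2 1.42 ± 0.31, edgeR adjusted p = 0.0026). In RSPO3+ cells it was 2.34-fold lower (log2 -1.23 ± 0.30, 0.017), a call that ended without library 3 of the small-intestinal group (0.106) or of the colonic group (0.0844) and without both libraries that stood apart (0.088), over 14 alternatives from 0.0036. CD31+ cells were lower in RSPO3+ cells by 14.0-fold in the small intestine and 4.73-fold in the colon (2.2e-08 and 1.2e-05). In RSPO3- cells the CD31 difference was 0.33 ± 0.30 in the small intestine, which did not pass (0.41), and -0.99 ± 0.30 in the colon (0.017). The colonic one ended without CD31- library 1 (-0.81, 0.0753) or CD31+ library 2 (-0.88, 0.0761) and in limma without the filter (0.0736), over 14 alternatives from 0.00668. Enpp2 shares 345 exonic bases with Gm26684 on the opposite strand, a gene with 181 counts over all libraries against 43293.

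Lpar1 (ENSMUSG00000038668, chr4:58435255-58553898, minus strand), the LPA receptor of fibroblasts, was abundant in every CD31- library. It was at 372, 353 and 321 CPM in small-intestinal RSPO3- libraries and at 786, 748 and 719.9 CPM in RSPO3+ libraries. Colonic libraries held 372, 467 and 406 CPM and 966, 1106 and 621 CPM. In both tissues all RSPO3+ values lay above all RSPO3- values, yet the differences of 1.11 ± 0.46 did not pass in the small intestine (edgeR adjusted p = 0.076) or in the colon (1.11 ± 0.46, 0.14). With only the groups compared they passed, at 0.94 (0.00123, the lowest of 13 alternatives, highest 0.207) and 1.07 (0.0317). The colonic difference also passed without both libraries that stood apart (1.32, 0.00169, the lowest of 14 alternatives, highest 0.363). The fibroblast marker sum was 15057 to 20876 CPM (RSPO3-) and 89568 to 102031 CPM (RSPO3+) in the small intestine; its part in the difference was not tested.

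CD31+ cells held far less Lpar1. The levels were 28.4, 18.8 and 23.4 CPM (RSPO3-) and 13.2, 26.2 and 20.4 CPM (RSPO3+) in the small intestine, and 54.8, 34.8 and 37.1 CPM in colonic RSPO3+ libraries. Colonic CD31+ RSPO3- libraries held 19.3, 31.2 and 137 CPM, the last being library 3 with its fibroblast markers. The CD31 difference was -3.89 ± 0.51 and -5.24 ± 0.55 in small-intestinal cells, and -2.73 ± 0.48 and -4.41 ± 0.52 in colonic ones, for RSPO3- and RSPO3+ cells (edgeR adjusted p from 2.0e-07 to 0.00023). Without library 3 the third of these was -4.09. In CD31+ cells Lpar1 stood at 6.76% and 2.65% of its CD31- level in small-intestinal cells and at 15.1% and 4.71% in colonic ones, and the fibroblast sum at 6.41%, 1.43%, 14.0% and 5.18% of its own. The tissue difference in CD31+ RSPO3- cells did not pass (1.41 ± 0.47, 0.098). It passed without colonic library 1 (1.84, 0.0151) or 2 (1.74, 0.0478) and in DESeq2 (0.0323), and without the 2 libraries that stood apart it was 0.10 (0.91), over 14 alternatives up to 0.965. In CD31+ RSPO3+ cells that difference was 1.09 ± 0.47 (0.20), which passed with only the groups compared (0.0498, the lowest of 13 alternatives, highest 0.456). The reporter difference in colonic CD31+ cells was -0.57 ± 0.46 (0.41) and 0.74 (0.053) without those 2 libraries, uncalled in either case.

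Per length, Lpar1 made up 91.0% to 99.3% of the summed TPM of the 6 LPA receptor genes in the 12 CD31- libraries. In CD31+ RSPO3- cells Lpar6, a receptor known from endothelium and hair follicles, led with 57.9% to 71.9% in the small intestine. Colonic CD31+ RSPO3- libraries had Lpar6 at 25.9% to 75.7% and Lpar1 at 16.1% to 72.0%, and the high Lpar1 share is that of library 3. In CD31+ RSPO3+ cells Lpar1 held 46.8% to 52.5% in the small intestine and 76.5% to 79.0% in the colon. Lpar6 was at 102 to 108 CPM in small-intestinal and 86.8 to 159 CPM in colonic CD31+ RSPO3- libraries, and at 26.1 to 41.6 CPM and 16.7 to 26.6 CPM in the CD31+ RSPO3+ ones. Lpar2, Lpar3 and Lpar5 each stayed at or under 9.51 CPM, and Lpar4 at or under 13.3 CPM.

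Plpp3 (ENSMUSG00000028517, chr4:105157347-105232764, plus strand), the lipid phosphate phosphatase, had the highest mean TPM of the 10 genes in 5 of 8 groups, S1pr1 leading in the other 3, and the narrowest range of group mean CPM, 3.70-fold. CD31+ RSPO3+ cells were its low point, at 549, 477 and 561 CPM in the small intestine and 476, 515 and 444 CPM in the colon. CD31+ RSPO3- cells held 1251, 882 and 1117 CPM and 1794, 1911 and 1608 CPM. Plpp3 fell with the reporter in CD31+ cells by 1.03 ± 0.18 on the log2 scale in the small intestine (edgeR adjusted p = 0.00028) and by 1.89 ± 0.19 in the colon (2.9e-07). Pericyte markers summed to 257 to 338 CPM (RSPO3-) and 11.7 to 27.8 CPM (RSPO3+) in the former. In the latter they summed to 351 to 636 CPM and 18.5 to 33.7 CPM. Over both tissues these sorts also differed in blood endothelial markers (11124 to 17990.4 CPM in RSPO3-, 305 to 882 CPM in RSPO3+). Lymphatic markers went the other way (1911 to 6002 CPM in RSPO3-, 29914 to 50696 CPM in RSPO3+). The part of each in the result was not tested. CD31- cells held 1215, 1214 and 1114 CPM (RSPO3-) and 1244, 1268 and 1284 CPM (RSPO3+) in the small intestine, a difference of 0.10 ± 0.18 (0.73). In the colon they held 632, 888 and 859 CPM and 1609, 1799 and 1093 CPM, and Plpp3 rose there by 0.92 ± 0.18 (0.0026). The colonic rise did not pass with only the groups compared (0.87, 0.0679) or in limma with a pseudocount of 1 (0.56, 0.0704) or 0.1 (0.56, 0.0761) or without the filter (0.56, 0.128), over 14 alternatives from 1.53e-06.

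The CD31 difference of Plpp3 changed sign with the reporter in the colon. It was 1.16 ± 0.18 in RSPO3- cells (2.23-fold higher in CD31+, edgeR adjusted p = 6.5e-05) and -1.65 ± 0.18 in RSPO3+ cells (3.14-fold lower, 7.5e-07). In the small intestine it was -0.12 ± 0.18 (0.62) and -1.26 ± 0.18 (1.3e-05). Plpp3 was the only member called between the tissues in CD31+ RSPO3- cells, 1.64-fold higher in colon (log2 0.71 ± 0.18, 0.027). That call ended without small-intestinal library 2 (0.135) or 3 (0.0672), without colonic library 1 (0.0661) or 2 (0.0854), with only the groups compared (0.139) and in limma with a pseudocount of 1 (0.0934) or 0.1 (0.103) or without the filter (0.168), over 14 alternatives from 0.00104. In CD31- RSPO3- cells the colon was lower by 0.57 ± 0.18 on the log2 scale (0.031). That ended without small-intestinal library 1 (0.0778), 2 (0.0606) or 3 (0.0598), without colonic library 1 (0.112) or 3 (0.0523), with only the groups compared (0.0585) and in limma with a pseudocount of 1 (0.268) or 0.1 (0.279) or without the filter (0.379), over 13 alternatives from 0.00079.

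Counted over the genes, the reporter calls in CD31+ cells, 3 of 10 in each tissue, were near the share of all genes. Among CD31+ cells the same 3 genes, S1pr3, Enpp2 and Plpp3, were lower in RSPO3+ cells of both tissues and no member was higher, where 9.23% of all genes were higher and 10.8% lower in the small intestine (20.1% together) and 9.52% higher and 13.6% lower in the colon (23.1% together). Their median log2 differences over the 10 genes were -0.42 and -0.58, against 0.00 and -0.05 over all tested genes. Among CD31- cells of the small intestine S1pr1, S1pr2 and Enpp2 were higher and Sphk2 and Sgpl1 lower in RSPO3+ cells, where 16.1% of all genes were higher and 14.3% lower, 30.4% together (median 0.46 against 0.11). Scaling by DESeq2's median ratios moved the median of all genes by -0.11 in that comparison. In the colon S1pr1, Spns2, Sphk1 and Plpp3 were higher and none lower, where 4.80% of all genes were higher and 4.34% lower, 9.14% together (median 0.82 against 0.00). Without both libraries that stood apart 5 members were called there.

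**Figure D4:**
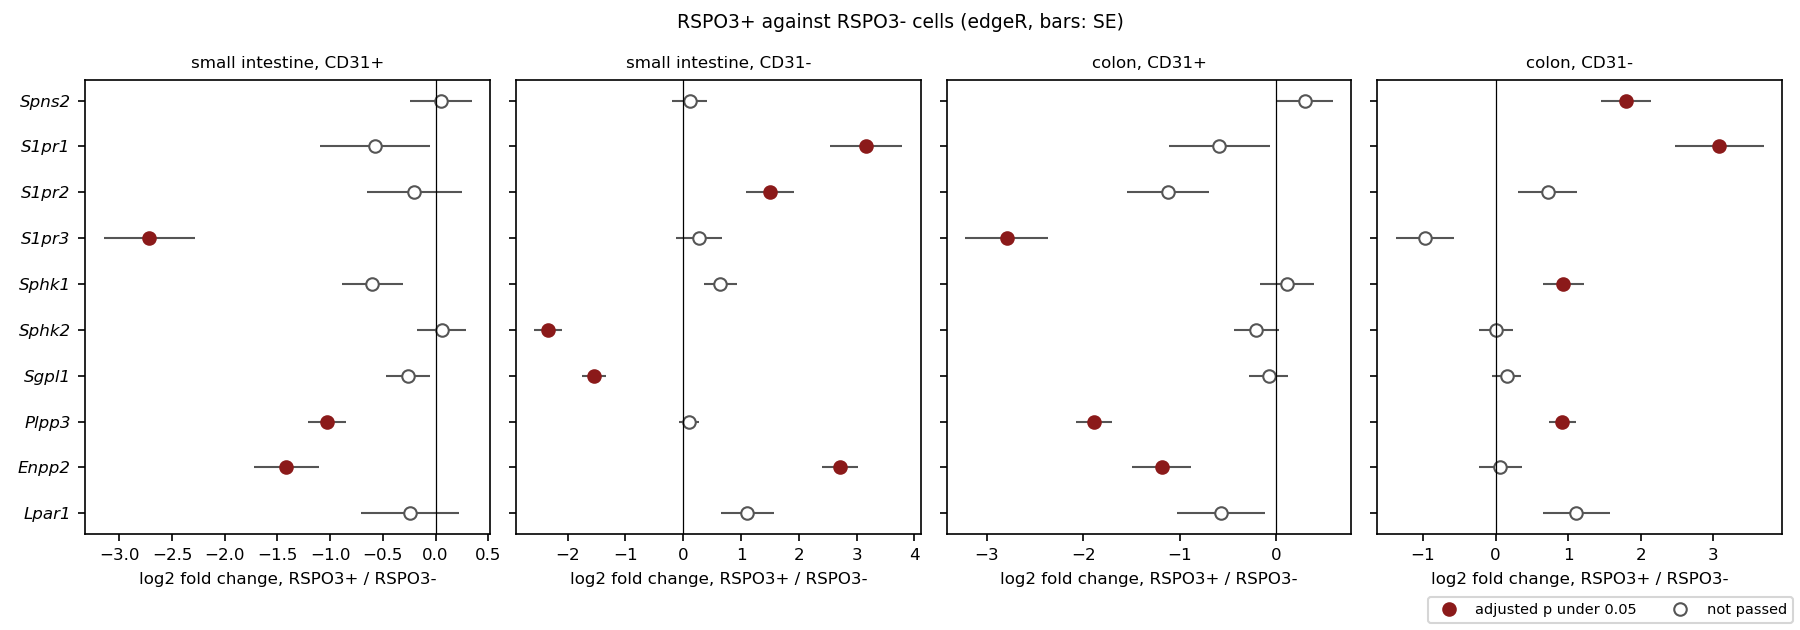
Log2 difference between RSPO3+ and RSPO3- cells (x axis, bars give the standard error) for each of the 10 genes in the 4 combinations of tissue and CD31 sign; filled points had an edgeR adjusted p under 0.05. S1pr3, Enpp2 and Plpp3 lie to the left in both CD31+ panels, S1pr1 to the right in both CD31- panels.

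Between tissues edgeR called more of the 10 genes in CD31- than in CD31+ cells. The share of all tested genes was also larger in CD31- cells, but only narrowly under RSPO3+. With only the groups compared, the RSPO3+ counts of members were equal in both gates. Single libraries left out moved the RSPO3+ counts of all genes in both gates, as given below. In CD31- RSPO3- cells Enpp2 was higher in colon and Spns2, Sphk2, Sgpl1 and Plpp3 lower, where 8.79% of all genes were higher and 8.81% lower, 17.6% together (median of the 10 -0.16, of all genes 0.10). In CD31- RSPO3+ cells Sphk1 was higher and Spns2, S1pr3 and Enpp2 lower, where 3.62% of all genes were higher and 3.40% lower, 7.02% together (medians 0.06 and -0.01), and without both libraries that stood apart 3 members were called. In CD31+ RSPO3- cells 1 of 10 was higher and none lower, where 2.72% of all genes were higher and 1.71% lower, 4.43% together (medians 0.10 and 0.04), and leaving out single libraries gave 0 to 3. In CD31+ RSPO3+ cells 1 of 10 was higher and none lower, where 2.83% of all genes were higher and 3.52% lower, 6.35% together (medians 0.19 and 0.00).

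Tests of the difference between differences showed where the reporter difference was unequal. It differed between tissues in CD31- cells for 4 of 10 genes (Spns2, Sphk2 and Sgpl1 higher, Enpp2 lower in colon minus small intestine), where 4.91% of all genes were higher and 3.48% lower (8.38% together). In that comparison 58.5% of all called genes were higher, and 70.0% with DESeq2's size factors, which moved the median of all genes by 0.12. In CD31+ cells edgeR called none of 10, where 0.640% of all genes were higher and 1.29% lower (1.93% together); Plpp3 alone had an unadjusted p under 0.05 (-0.86 ± 0.25, adjusted p = 0.096), and DESeq2 called that 1 gene (0.0141, the lowest of 20 alternatives, highest 0.321). Between the CD31 gates the reporter difference was unequal for 8 of 10 genes in the small intestine, 2 higher and 6 lower, where 11.1% of all genes were higher and 13.1% lower (24.3% together). In the colon it was unequal for 6 of 10, all lower, where 6.61% were higher and 10.4% lower (17.0% together). The colonic count ran from 2 to 7 when single libraries were left out and was 3 without both libraries that stood apart. The RSPO3 groups are shared by the compared differences, so these counts overlap with those above. Enpp2 in the small intestine had the interaction of greatest size, 2.72 up in CD31- and 1.41 down in CD31+ cells, a difference of -4.13 ± 0.44 (edgeR adjusted p = 1.2e-06). Plpp3 had the one with the smallest adjusted p in the colon, -2.81 ± 0.26 (2.9e-07).

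The surrounding pathway was read from a list of 39 further genes of sphingolipid and LPA metabolism, of which 34 could be tested. CD31+ cells exceeded CD31- cells in 13 and fell below in 14 of 34 (small intestine RSPO3-), 11 and 5 (small intestine RSPO3+), 10 and 7 (colon RSPO3-) and 10 and 6 (colon RSPO3+). The shares of all tested genes called either way were 41.6%, 36.5%, 32.5% and 33.1% in that order. Acer2, a Golgi ceramidase that supplies sphingosine, had the largest endothelial excess among the genes named by adjusted p. Its level was 408 to 999 CPM in small-intestinal CD31+ RSPO3- libraries against 1.74 to 4.54 CPM in their CD31- counterpart (log2 7.75 ± 0.54, edgeR adjusted p = 1.7e-09, and 7.16 without CD31+ library 2). It was 6.19, 7.16 and 4.04 higher on the log2 scale in small-intestinal RSPO3+, colonic RSPO3- and colonic RSPO3+ cells. Sptlc2, a subunit of the enzyme that starts sphingolipid synthesis, was higher in CD31+ cells by 1.22 to 2.27 in the 4 comparisons, and Sgms1, a sphingomyelin synthase, by 1.11 to 2.89. Lpar6 was higher in CD31+ RSPO3- cells by 2.77 (small intestine) and 3.58 (colon), and Degs1, a ceramide desaturase, by 1.80 in colonic RSPO3+ cells.

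With the reporter, 4 of these 34 genes rose and 5 fell in small-intestinal CD31+ cells, against 6 and 5 in colonic ones, where 20.1% and 23.1% of all tested genes were called. Pla1a, a phospholipase that can make lysophospholipids, rose by 3.07 ± 0.44 in the small intestine (3.68 without CD31+ RSPO3- library 1), Degs1 by 1.32 and 1.26, while Lpar6 fell by 1.56 and 2.63 in the tissues in that order. Acer3, an alkaline ceramidase, fell by 1.67 in the colon. CD31- cells had 11 rises and 14 falls in the small intestine, with 30.4% of all tested genes called, and 7 rises and 2 falls in the colon, with 9.14%. Asah2, the ceramidase of intestinal epithelium, fell by 4.72 and Plpp2 by 4.74 in small-intestinal CD31- cells beside the epithelial marker sum and the mitochondrial share given above, whose part was not tested; Smpd1, the acid sphingomyelinase, rose there by 1.51. In the colon Plpp1 rose by 1.15, Acer3 by 0.75 and S1pr4 by 3.84. The S1pr4 rise was 2.89 without RSPO3+ library 3, which held leukocyte markers, and 4.89 without RSPO3- library 1. S1pr4 levels were low there, at 0 to 0.102 TPM in RSPO3- and 0.184 to 0.728 TPM in RSPO3+ libraries. In limma the Acer3 call ended at a pseudocount of 1 (adjusted p = 0.13) or 0.1 (0.138) or without the filter (0.228), that of S1pr4 at 1 (0.151) or without the filter (0.319) and that of Plpp1 without the filter (0.0766). Their alternatives started from 0.000842, 0.000815 and 0.000108. Between tissues 4 were higher and 9 lower in colon for CD31- RSPO3- cells (Asah2 by -5.34, Asah1 by 0.93, Aldh3a2 by -0.78), where 17.6% of all tested genes were called. The shares for the next 3 sorts were 7.02%, 4.43% and 6.35%. Sgms2 (1.60) and S1pr4 (3.01) were higher in colon for CD31- RSPO3+ cells, with none lower. The small-intestinal S1pr4 level in that sort was 0 to 0.0789 TPM. Pla1a (2.28) and Acer3 (0.87) were higher in colon for CD31+ RSPO3- cells, with none lower. In CD31+ RSPO3+ cells Sgms1 (-1.13), Acer2 (-1.72) and Sptlc2 (-0.57) were lower and none higher. The S1pr4 tissue call ended without small-intestinal library 1 (adjusted p = 0.0651) or 2 (0.0902) or colonic library 3 (0.202), without both libraries that stood apart (0.207) and in limma at a pseudocount of 1 (0.252) or without the filter (0.477), over 13 alternatives from 0.0019. That of Sgms2 ended in limma at 0.1 (0.0589) or without the filter (0.0534), over 14 alternatives from 0.000136. In CD31+ RSPO3- cells the Pla1a call ended with only the groups compared (0.114, over 14 alternatives from 2.01e-06). The Acer3 one ended in limma at a pseudocount of 1 (0.412) or 0.1 (0.42) or without the filter (0.556), over 14 alternatives from 0.000125. The Acer2 tissue call ended without colonic library 1 (0.074) or 3 (0.068), over 13 alternatives from 0.00053. That of Sptlc2 ended without small-intestinal library 2 (0.0992) or 3 (0.099) or colonic library 1 (0.156) or 3 (0.0938) and in edgeR without the filter (0.0881), over 13 alternatives from 0.0088. The S1P carriers were near absent as transcripts, with Mfsd2b at 0.0692 to 2.70 CPM and Apom at or under 0.146 CPM.

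The genes closest in pattern show which transcripts track each member across the 24 libraries, as Pearson correlations of log2 CPM over libraries that share their sort. S1pr1 was followed most closely by Tie1 (r = 0.994) and Myct1 (0.991), Spns2 by Aqp1 (0.979) and Exoc6 (0.964), Lpar1 by Qpct (0.992) and Col5a1 (0.991), and S1pr2 by Kdelr3 (0.987). Closest to S1pr3 were Tmem176a (0.965) and Tmem176b (0.962), to Sphk1 Has1 (0.972) and Pqlc3 (0.965), and to Sgpl1 Lpgat1 (0.967) and Plin3 (0.957). Enpp2 was nearest to Nucb2 (0.947) and Pcyox1 (0.946), Sphk2 to Dera (0.929) and Dgat1 (0.928), and Plpp3 to Chst7 (0.918) and Parp16 (0.906). Among the members themselves S1pr2 and Lpar1 (r = 0.972) and Spns2 and S1pr1 (0.923) ran closest, and Spns2 and Lpar1 were the most opposed (-0.877). These values are descriptions, with no test.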

How the data were processed

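Libraries were made with SMART-Seq v4 from RNA extracted with a Qiagen RNeasy kit, per the labels' protocols, and strand was not marked. Per the submitters' processing notes, reads were processed with Salmon 1.3.0 and R 4.0.1 on mm10. The authors deposited one table of estimated counts per gene, whole numbers as deposited, and one of log2(TPM + 1). Both name the group of a column, with a serial code and no replicate number. Counts were fitted with edgeR 4.0.16 (R 4.3.3): TMM scaling, filterByExpr (minimum count 10, minimum total 15), 1 mean for each of the 8 groups over all 24 libraries, no covariates, quasi-likelihood F tests, Benjamini-Hochberg over all 19050 genes tested, threshold 0.05. Interactions are differences of 2 such log2 differences. CPM values use the TMM-scaled library sizes; TPM is the deposited log2 value turned back. The correlations used log2 CPM with a prior count of 2.

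Total counts of 8462041 to 29214487 limit the precision of low genes. Replicate libraries correlated at 0.893 to 0.967 and differed by far more than counting noise, with a chi-square of at least 27.2 per degree of freedom. The alternatives were DESeq2 1.42.0, its size factors in edgeR, no filter, only the groups compared, limma 3.58.1 on log2(TPM + 1) with and without the filter and on log2(TPM + 0.1), and leaving out each library. Leaving out both libraries that stood apart was chosen after seeing the data. The members and lists were chosen with earlier results of these data known. Named are all members, the receptors and carriers of the pathway list, up to 3 of its genes with the smallest adjusted p per comparison, and the 2 tested genes most correlated with each member, of which 1 is not reported here.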

Additional observations from a re-analysis of the deposited data

Results flagged for a closer look

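Each of the following was singled out because the reporter difference (RSPO3+ against RSPO3-, log2) was unequal between tissues or between CD31 gates by edgeR's interaction test, and each is given as a value with no explanation. In CD31- cells the colonic difference minus the small-intestinal one was 2.34 for Sphk2, 1.69 for Sgpl1 and -2.65 for Enpp2, each called in all 20 alternatives. For Spns2 it was 1.68 (adjusted p = 0.025). That call ended without small-intestinal RSPO3+ library 1 (0.0696), small-intestinal RSPO3- library 3 (0.0788), colonic RSPO3- library 3 (0.074) or colonic RSPO3+ library 3 (0.124), without both libraries that stood apart (0.119), with only the groups compared (0.0872) and in limma at a pseudocount of 1 (0.0553) or without the filter (0.102). It was kept in 12 of 20 alternatives, the lowest at 0.0019.

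In the small intestine the difference in CD31+ cells minus that in CD31- cells was -4.13 for Enpp2, -3.74 for S1pr1, -2.99 for S1pr3, -1.13 for Plpp3, 2.39 for Sphk2 and 1.28 for Sgpl1, each called in all 19 alternatives. For S1pr2 it was -1.70 (adjusted p = 0.047), a call kept in 4 of 19 alternatives; of the 12 single libraries, only leaving out CD31+ RSPO3- library 2 kept it, and leaving out CD31+ RSPO3- library 1 gave -1.13 (0.213, the highest, with 0.0216 the lowest). For Sphk1 it was -1.24 (adjusted p = 0.029), kept in 9 of 19 alternatives (0.0134 to 0.114). It ended without CD31- RSPO3- library 1 (0.0618) or 2 (0.0671), CD31- RSPO3+ library 2 (0.0857) or 3 (0.0952), CD31+ RSPO3- library 2 (0.111), or CD31+ RSPO3+ library 1 (0.0803) or 2 (0.0849).

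In the colon the same quantity was -3.66 for S1pr1 and -2.81 for Plpp3, each called in all 20 alternatives, though S1pr1 stood at -2.21 without CD31- RSPO3+ library 3. S1pr3 stood at -1.82 (adjusted p = 0.034, kept in 7 of 20 alternatives, 0.0036 to 0.196). It ended without any single library apart from CD31- RSPO3- library 1, CD31- RSPO3+ library 3 and CD31+ RSPO3+ library 1. S1pr2 stood at -1.83 (0.037, kept in 6 of 20, 0.0087 to 0.474), and it ended without any single library apart from CD31- RSPO3+ library 3 and CD31+ RSPO3- libraries 1 and 2, falling to -1.12 without CD31+ RSPO3- library 3. Spns2 stood at -1.49 (0.026, kept in 9 of 20, 0.005 to 0.464). It ended without CD31- RSPO3- library 1 (0.0736) or 3 (0.0802), CD31- RSPO3+ library 3 (0.114), CD31+ RSPO3- library 1 (0.0652) or CD31+ RSPO3+ library 1 (0.0563) or 2 (0.0534). Enpp2 stood at -1.25 (0.049, kept in 5 of 20, 0.012 to 0.23), and of the 12 single libraries only leaving out CD31- RSPO3- library 1, CD31- RSPO3+ library 3 or CD31+ RSPO3+ library 1 kept it.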

How the results depend on the processing

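No paired analysis was possible because the columns carry a group and no replicate number. The number of members called stayed within 1.5 times its value under every alternative in the 4 CD31 comparisons, the reporter comparisons in CD31+ cells and in small-intestinal CD31- cells, the tissue comparison of CD31- RSPO3- cells, and the interactions of tissue with reporter in CD31- cells and of CD31 with reporter in the small intestine. The others moved. With only the groups compared, the CD31 by reporter interaction in colon went from 6 to 2 members, the reporter in colonic CD31- cells from 4 to 1, tissue in CD31- RSPO3+ cells from 4 to 2, tissue in CD31+ RSPO3- cells from 1 to 0 and tissue in CD31+ RSPO3+ cells from 1 to 2. With limma at a pseudocount of 1, at 0.1 and without the filter the colonic interaction gave 2 each time and tissue in CD31+ RSPO3- cells gave 0 each time, with 3 members at an unadjusted p under 0.05. The reporter in colonic CD31- cells gave 2 at 0.1 and 2 without the filter. DESeq2 gave 4 for tissue in CD31+ RSPO3- cells and 1 for the tissue by reporter interaction in CD31+ cells, where edgeR gave 0, and edgeR without the filter gave 2 for the former. Without both libraries that stood apart the colonic interaction gave 3 and the tissue by reporter interaction in CD31+ cells 1. The cause was not tested.

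Leaving out 1 library at a time gave 8 to 8 and 9 to 9 members for CD31 in small-intestinal RSPO3- and RSPO3+ cells, 7 to 9 and 9 to 9 in colonic ones, 3 to 3 and 4 to 5 for the reporter in small-intestinal CD31+ and CD31- cells, and 2 to 4 and 3 to 4 in colonic ones. Tissue gave 4 to 5 in CD31- RSPO3-, 2 to 4 in CD31- RSPO3+, 0 to 3 in CD31+ RSPO3- and 1 to 1 in CD31+ RSPO3+ cells. The interactions gave 0 to 0 and 3 to 5 for tissue by reporter in CD31+ and CD31- cells, and 6 to 7 and 2 to 7 for CD31 by reporter in small intestine and colon. Over all genes, counts that moved by over 1.5 times were the reporter in colonic CD31- cells (1741, with 1152 for only the groups compared, 2645 in DESeq2 and 2878 to 3306 in limma), tissue in CD31- RSPO3- (3353, 5330 in limma at 1), CD31- RSPO3+ (1337, 2139 in DESeq2), CD31+ RSPO3- (844, 320 for only the groups compared, 1577 in DESeq2) and CD31+ RSPO3+ cells (1209, 1869 in DESeq2), and tissue by reporter in CD31- (1597, 2414 in DESeq2, 2543 to 3421 in limma) and CD31+ cells (367, 825 in DESeq2). Single libraries moved them too. The reporter in colonic CD31- cells gave 1072 without RSPO3- library 3 and 1059 without RSPO3+ library 1. Tissue gave 1966 in CD31- RSPO3- cells without small-intestinal library 3, 816, 731 and 735 in CD31- RSPO3+ cells without small-intestinal libraries 1, 2 and 3, 523 in CD31+ RSPO3- cells without small-intestinal library 2, and 783 and 749 in CD31+ RSPO3+ cells without colonic libraries 1 and 3. Tissue by reporter gave 841 to 1046 in CD31- cells without small-intestinal RSPO3- library 3, small-intestinal RSPO3+ library 1 or 2, colonic RSPO3- library 2 or colonic RSPO3+ library 3, and 233 in CD31+ cells without colonic RSPO3- library 1. Of 204 differences of named genes none changed direction while called in either setting over 1538 alternative values apart from single libraries left out, and 74 values changed sign while uncalled in both. Libraries of 3 per group and a common biological coefficient of variation of 0.429 limit small differences.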
